A study of Mus musculus with 7 samples.

Results

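The 91 genes described here encode the nuclear subunits and close partners of the 5 enzyme complexes of oxidative phosphorylation. They were taken by symbol from a table of 16760 genes measured by RNA sequencing. Symbols that begin with Nduf, Uqcr, Cox4 to Cox8 or Atp5, together with Sdha, Sdhb, Sdhc, Sdhd and Cyc1, were kept. Of 93 matching symbols, 2 that carry the pseudogene suffix -ps were left out. Complex I had 45 of the genes, complex II 4, complex III 9, complex IV 16 and complex V 17. Ndufa4 was counted with complex IV, of which it is a subunit in spite of its name. By the GENCODE M21 annotation of mm10, 89 of the genes are protein-coding and 2, Ndufb4c and Cox6c2, are processed pseudogenes.

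The libraries came from mouse CD150-negative cells that the labels call HSC (haematopoietic stem cell), all on the C57/B6 strain. In 3 libraries the mice carried a deletion of chromosome band 5G2 (5G2del), which is syntenic to human 7q22, and 4 libraries were wild type (WT). The sources used here give neither the age of the mice, nor further sort markers, nor the zygosity and ends of the deletion. They do not say whether each library came from its own animal, so a p-value here measures spread among libraries that may in part be technical repeats. A letter after the group names a library (5G2del-A, WT-A and so on) and is not tied to a sample number.

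Oxidative phosphorylation passes electrons from NADH through complex I, and from succinate through complex II, to ubiquinone, then through complex III, cytochrome c and complex IV to oxygen. Complexes I, III and IV pump protons across the inner mitochondrial membrane, and complex V, the ATP synthase, uses the return flow to make ATP. Complexes I, III, IV and V combine subunits encoded in the nucleus with subunits encoded in mitochondrial DNA, whereas complex II is wholly nuclear. Quiescent haematopoietic stem cells are known for a low reliance on mitochondrial respiration, which increases as they become active and differentiate.

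Promoters of this gene class are known for sites of NRF1 and of ETS family factors such as GABP. The 250 bases upstream of the RefSeq start site were read from RefSeq (GRCm38.p6), which had an entry for 73 of the 91 genes. The windows printed here, 5′ to 3′, belong to the gene of each complex with the highest level per length. Capitals mark matches on either strand to the core of the NRF1 site (GCGC, any 2 bases, GCGC) or to CCGGAAG, an ETS core.
Ndufb11 (chrX:20617620-20617869, minus strand): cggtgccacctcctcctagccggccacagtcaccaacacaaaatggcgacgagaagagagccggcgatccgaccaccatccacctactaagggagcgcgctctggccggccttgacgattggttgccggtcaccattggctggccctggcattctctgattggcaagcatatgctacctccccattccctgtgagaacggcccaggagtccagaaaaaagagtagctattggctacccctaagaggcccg
Sdhd (chr9:50603850-50604099, minus strand): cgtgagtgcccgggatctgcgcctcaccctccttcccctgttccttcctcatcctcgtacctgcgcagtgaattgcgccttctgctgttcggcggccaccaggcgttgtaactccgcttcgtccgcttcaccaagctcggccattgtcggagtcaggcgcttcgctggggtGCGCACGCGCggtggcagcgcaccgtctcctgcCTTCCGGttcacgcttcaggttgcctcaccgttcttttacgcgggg
Uqcrh (chr4:116075071-116075320, minus strand): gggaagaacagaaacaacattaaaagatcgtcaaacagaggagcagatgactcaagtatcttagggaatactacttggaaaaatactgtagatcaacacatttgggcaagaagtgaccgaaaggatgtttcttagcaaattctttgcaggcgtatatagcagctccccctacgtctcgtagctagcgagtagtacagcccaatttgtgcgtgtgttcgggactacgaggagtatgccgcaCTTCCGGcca
Cox6a1 (chr5:115348959-115349208, minus strand): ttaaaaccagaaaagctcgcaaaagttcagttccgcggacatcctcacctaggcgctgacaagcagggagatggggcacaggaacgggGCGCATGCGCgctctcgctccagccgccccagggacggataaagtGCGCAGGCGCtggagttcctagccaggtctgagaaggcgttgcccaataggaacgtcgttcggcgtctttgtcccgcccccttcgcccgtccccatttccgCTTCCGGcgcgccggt
Atp5b (chr10:128083057-128083306, plus strand): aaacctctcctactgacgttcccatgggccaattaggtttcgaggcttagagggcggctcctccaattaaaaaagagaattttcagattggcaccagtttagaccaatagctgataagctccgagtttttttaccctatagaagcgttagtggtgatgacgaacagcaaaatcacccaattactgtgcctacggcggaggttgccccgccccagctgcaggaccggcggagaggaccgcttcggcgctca
The Cox6a1 window held 2 NRF1 matches and an ETS match, and the Sdhd window held a match to each. In the Uqcrh window only the ETS letters occurred, and the windows of Ndufb11 and Atp5b had no match to either.

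Among all members, the NRF1 letters were in 16 of 73 windows (21.9%), against 11.5% of the 10922 genes of the table that had a window and 5.64% of the 27025 genes in the promoter set. The ETS letters were in 14 of 73 (19.2%), against 15.2% and 7.83%. A YY1 core, ATGGCGGC, was in 1 of 73 windows (1.37%), that of Ndufa7, against 2.22% and 1.19%. Windows with the NRF1 letters were found upstream of 9 of 39 complex I genes, 2 of 3 complex II genes, 1 of 11 complex IV genes and 4 of 15 complex V genes. Genes with the NRF1 letters had a median log2 fold change of 0.23 between the groups and those without had 0.20, and for the ETS letters these medians were 0.18 and 0.21. Without the library WT-A they were 0.01 and 0.00 for NRF1, and -0.03 and 0.04 for ETS. A match is a description of letters and does not show binding.

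All 91 genes were measured, and 88 were above 3 counts in every library. Mean levels ran from -3.11 to 8.91 log2 CPM (counts scaled to the size of the library, on a log2 scale), and 87 genes had a mean over 2. Per length, as CPM per kilobase of the reference transcript, the median gene was at 30.7. Complex V genes were the most abundant as a class, with a median of 90.4, and complex I genes the least, with 19.1. Complexes II, III and IV had medians of 34.1, 28.9 and 67.3. Atp5b, the catalytic beta subunit of the ATP synthase, had the highest level per length of any member, 252. Cox6a1, Cox4i1, Uqcrh and Atp5g2 followed at 190, 187, 168 and 165. The lowest was Cox6a2, the heart and skeletal muscle isoform of subunit 6a, at 0.302. A single reference transcript set each length, so genes with a long principal transcript, such as Atp5g1 with 4715 bases, may have a level per length that is too low. WT-A, which was low in most members, and WT-B, in which 1104 genes of the table had no count (83 to 492 elsewhere), stood apart from the other libraries.

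No member differed between 5G2del and WT past an adjusted p of 0.05 in limma-trend over all genes, and the smallest adjusted p of a member was 0.989. None of the table's 16760 genes passed either (0%). At an unadjusted p under 0.05 the members gave 0 calls, against 3.91% of all genes. The mean of 81 members was higher in 5G2del and that of 10 was lower. The 81 are 89.0% of the members, and 53.3% of all genes had a positive log2 fold change. Their median log2 fold change was 0.20, against 0.03 over all genes, and the 88 members above 3 counts in all libraries ran from -0.38 for Atp5md to 0.76 for Ndufaf2. Gene by gene, the 4 WT libraries, WT-A among them, spanned more than the gene's own log2 fold change in 90 of 91 members. The median span of a member over the WT libraries was 1.14 log2 units, and the median size of the log2 fold change was 0.21. These spans describe single genes and not the median of the list.

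The excess of positive differences rested on WT-A. That library had the lowest value of the 7 in 69 of 91 members (75.8%), whereas it was lowest in 15.0% of all genes. The median member in WT-A was 0.68 log2 units below its own mean over the libraries. The corresponding values were -0.09, 0.22 and 0.20 in the 5G2del libraries A, B and C, and 0.28, -0.06 and 0.10 in WT-B, WT-C and WT-D. WT-B had the highest value in 39 members, more than any other library. Without WT-A, 47 of 91 members had a higher mean in 5G2del, beside 52.1% of all genes, the median log2 fold change was 0.01, which is 0.0081 below that of all genes, and 36 members changed sign. Some members were called at an unadjusted p under 0.05 with a library left out. Without WT-B they were 9 of 91, a larger share than the 5.85% of all genes. All 9 were higher in 5G2del, and 5 of them were accessory subunits of complex I. The others were 2 without 5G2del-A (3.9% of all genes), Ndufaf2 and Atp5d, and 2 without WT-A (4.47%), Uqcrc1 and Atp5md. In the heat map of 90 of the members, WT-A is the column that stands apart.

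**Figure D1:**
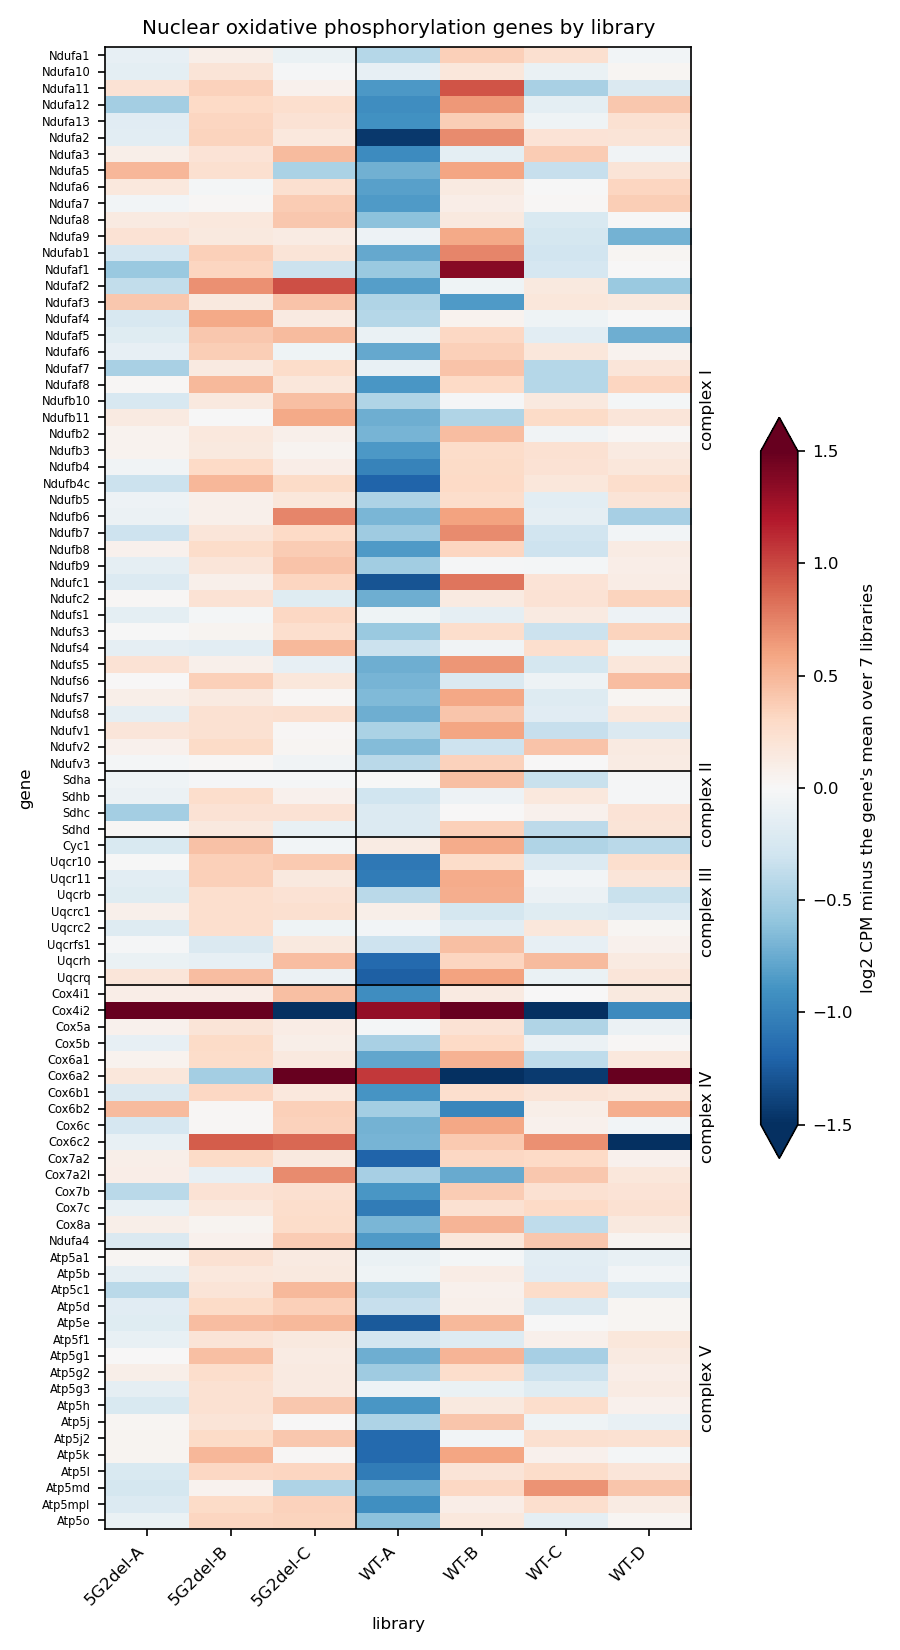
Each row is 1 of 90 of the genes, grouped by complex, and each column 1 library, with colour giving log2 CPM minus the gene's mean over the 7 libraries (values beyond 1.5 in either direction share the end colours). WT-A is blue in most rows of complexes I, III, IV and V, and it is the lowest library in 69 rows.

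By complex, WT-A was the lowest library for 38 of 45 genes of complex I, 6 of 9 of complex III, 10 of 16 of complex IV and 14 of 17 of complex V. Complex II was the exception, with WT-A lowest for 1 of 4. Median log2 fold changes were 0.20 for complex I (41 of 45 higher in 5G2del), -0.01 for complex II (2 of 4), 0.17 for complex III (7 of 9), 0.23 for complex IV (15 of 16) and 0.24 for complex V (16 of 17). Without WT-A they were -0.02, -0.05, -0.01, 0.05 and 0.08. The library medians by complex show the same library below the others in each complex.

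**Figure D2:**
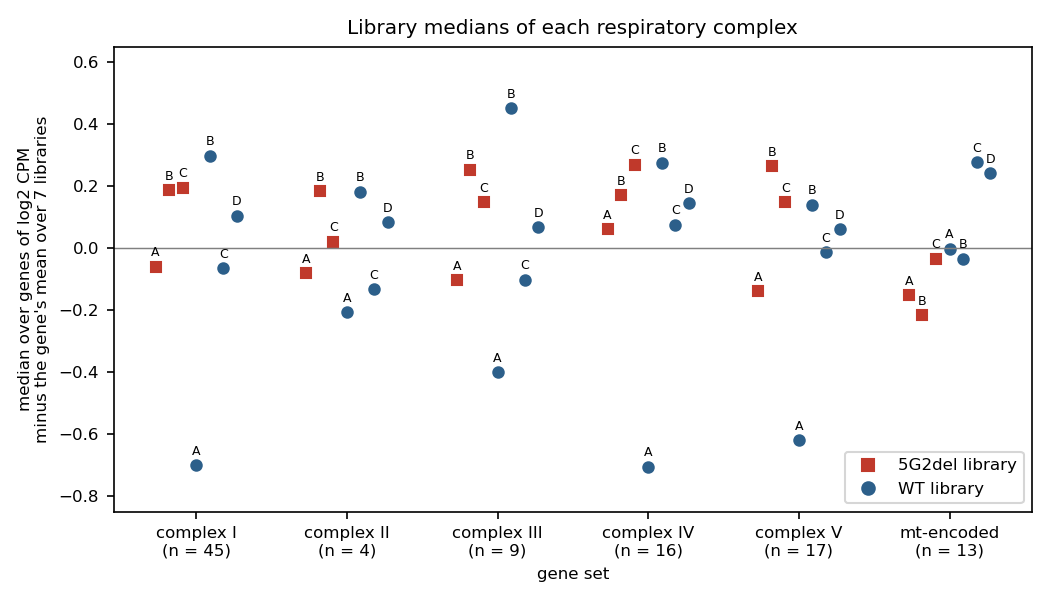
Each point is the median, over the genes of a set, of log2 CPM minus the gene's mean over 7 libraries, with squares for the 3 5G2del libraries, circles for the 4 WT libraries and the library's letter above. WT-A lies at -0.70 for complex I, -0.21 for II, -0.40 for III, -0.70 for IV and -0.62 for V, and at -0.00 for the mt-encoded subunits, where the 5G2del libraries are at -0.15, -0.22 and -0.03.

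In complex I, the 7 core subunits carry the flavin and iron-sulfur centres and the ubiquinone site. All 7 had a higher mean in 5G2del, by 0.08 to 0.26 log2 units, with none past the test. Ndufv1, which holds the NADH site, was at 5.27, 5.32 and 5.11 log2 CPM in the 5G2del libraries and at 4.62, 5.68, 4.75 and 4.88 in the WT libraries. WT-B was above and the other WT libraries below every 5G2del library, so the groups overlapped, with a log2 fold change of 0.26 ± 0.25 (SE), 0.13 without WT-A and 0.49 without WT-B. The other NADH-oxidising subunits, Ndufv2 and Ndufs1, differed by 0.23 ± 0.25 and 0.08 ± 0.18. Of the subunits that pass electrons on to ubiquinone, Ndufs3 differed by 0.16 ± 0.24, Ndufs7 by 0.14 ± 0.26 and Ndufs8 by 0.20 ± 0.25. Without WT-A those of Ndufv2, Ndufs1, Ndufs3, Ndufs7 and Ndufs8 were 0.04, 0.08, 0.00, -0.06 and -0.02. Without WT-B those of Ndufs7 and Ndufs8 were 0.35 and 0.36.

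The 29 accessory subunits of complex I, which surround the core, had a median log2 fold change of 0.20 and 27 had a higher mean in 5G2del. WT-A was the lowest library for 27 of the 29, and without it 11 of the 29 were higher. Ndufb11, an X-linked subunit of the membrane arm and the most abundant complex I gene per length, was at 5.79, 5.65 and 6.23 log2 CPM in 5G2del and at 4.93, 5.21, 5.95 and 5.85 in WT. The 2 higher WT libraries lay among the 5G2del ones, and the log2 fold change was 0.41 ± 0.26, or 0.22 without WT-A. Ndufa2, a small subunit of the peripheral arm, was at 3.42, 3.92 and 3.74 in 5G2del and at 2.14, 4.29, 3.78 and 3.77 in WT. It lay further down in WT-A, relative to its median library, than any other member.

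The 8 assembly factors Ndufaf1 to Ndufaf8, which help to build complex I but are not part of the finished enzyme, had a median log2 fold change of 0.33, with 6 of 8 higher in 5G2del. Without WT-A the median was 0.16. Ndufaf2, a paralogue of the subunit Ndufa12, was at 2.35, 3.40 and 3.68 log2 CPM in 5G2del and at 1.89, 2.65, 2.86 and 2.16 in WT. 5G2del-B and 5G2del-C were above every WT library, and 5G2del-A lay among them. The log2 fold change was 0.76 ± 0.39 (limma-trend adjusted p = 0.989), 1.15 without 5G2del-A and 0.49 without 5G2del-C. Ndufaf1, a member of the assembly complex for the membrane arm, was at 3.08, 3.95 and 3.31 in 5G2del and at 3.07, 4.99, 3.38 and 3.64 in WT. WT-B alone was above the highest 5G2del library, and the log2 fold change turned from -0.32 ± 0.42 to 0.08 without it.

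Complex II links the respiratory chain with the tricarboxylic acid cycle. Sdha, its flavoprotein that oxidises succinate, was at 6.97, 7.02 and 7.02 log2 CPM in 5G2del and at 7.03, 7.49, 6.71 and 7.02 in WT. The 5G2del libraries were nearly level and lay inside the WT span, with a log2 fold change of -0.06 ± 0.18, which turned to 0.08 without WT-B. Sdhb, the iron-sulfur subunit, differed by 0.14 ± 0.19, and the membrane anchors Sdhc and Sdhd by -0.04 ± 0.22 and 0.03 ± 0.20. Without WT-A these 3 values were 0.05, -0.12 and -0.03, and without WT-B that of Sdhd was 0.15. WT-A was closer to the other libraries here, with a median of -0.21 log2 units.

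In complex III, Uqcrc1 had the smallest p of any of the 91 members. This core protein of the matrix side (chr9:108936633-108949623) was at 5.63, 5.82 and 5.81 log2 CPM in 5G2del and at 5.65, 5.30, 5.38 and 5.35 in WT. WT-A was the 1 WT library that reached the 5G2del libraries, and the 3 other WT libraries were below all of them. Its log2 fold change was 0.33 ± 0.16 (limma-trend adjusted p = 0.989), and 0.41 without WT-A. Its difference was thus larger without that library, whereas those of 64 of 91 members were smaller in size. Its partner core protein Uqcrc2 was at 5.94, 6.38 and 6.07 in 5G2del and at 6.09, 5.97, 6.29 and 6.16 in WT, a log2 fold change of -0.00. Cyc1, the cytochrome that passes electrons to cytochrome c, and Uqcrfs1, the Rieske iron-sulfur protein, differed by 0.10 ± 0.27 and -0.05 ± 0.21. They were 0.16 and -0.16 without WT-A, and 0.30 and 0.09 without WT-B. Uqcrh, the hinge protein next to Cyc1, was at 6.34, 6.32 and 6.90 in 5G2del and at 5.27, 6.76, 6.91 and 6.57 in WT. Every WT library but WT-A was above 2 of the 3 5G2del libraries, and the log2 fold change of 0.14 ± 0.34 became -0.23 without WT-A.

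The catalytic core of complex IV is encoded in mitochondrial DNA, so its nuclear genes supply the surrounding subunits. Cox4i1, the ubiquitous form of subunit 4, was at 7.21, 7.22 and 7.56 log2 CPM in 5G2del and at 6.17, 7.25, 7.12 and 7.26 in WT. Except for WT-A the groups were close, and the log2 fold change of 0.38 ± 0.25 was 0.12 without that library. Cox6a1 was at 6.77, 6.98 and 6.86 in 5G2del and at 5.93, 7.23, 6.33 and 6.87 in WT. WT-B was above every 5G2del library and WT-A below the rest, and the log2 fold change was 0.28 ± 0.27, 0.06 without WT-A and 0.49 without WT-B. Cox7a2l, a factor that joins complexes III and IV into supercomplexes, differed by 0.40 ± 0.29, or 0.29 without WT-A.

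The isoforms of complex IV that are typical of other tissues were low. Cox4i2, the lung form of subunit 4, was at or under 3 counts in 2 of 7 libraries. Cox6a2, the muscle form of subunit 6a, was under 3 counts in WT-B and WT-C and at 3 counts in 5G2del-B. No fold is given for either gene. Cox6b2, the testis form of subunit 6b, was at 3.07, 2.61 and 2.95 log2 CPM in 5G2del and at 2.07, 1.61, 2.68 and 3.13 in WT. WT-D was above every 5G2del library, and the log2 fold change was 0.50 ± 0.39, 0.40 without WT-A and 0.25 without WT-B. Its ubiquitous counterpart Cox6b1 was at 5.26 to 5.79 in 5G2del and at 4.59 to 5.73 in WT.

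The single member whose groups did not overlap belongs to complex V. Atp5a1, the alpha subunit of the catalytic head (chr18:77773729-77782869), was at 8.38, 8.59 and 8.49 log2 CPM in 5G2del and at 8.26, 8.32, 8.20 and 8.24 in WT. The gap between the lowest 5G2del and the highest WT library was small beside the levels, and WT-A lay within the WT span. Its log2 fold change was 0.23 ± 0.13 (limma-trend adjusted p = 0.989), and 0.23 without WT-A. That 1 of 91 members was higher without overlap compares with 2.92% of all genes, and with 5.7% in either direction.

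Atp5b was at 8.77, 9.06 and 9.05 log2 CPM in 5G2del and at 8.84, 9.02, 8.74 and 8.87 in WT. The groups overlapped and no library stood apart, with a log2 fold change of 0.09 ± 0.15. The subunits of the rotating shaft, Atp5c1, Atp5d and Atp5e, differed by 0.16 ± 0.23, 0.27 ± 0.18 and 0.44 ± 0.35, and by 0.04, 0.20 and 0.08 without WT-A. Without WT-B that of Atp5e was 0.67. Atp5g1, Atp5g2 and Atp5g3 encode the same mature subunit of the membrane ring. They differed by 0.34 ± 0.27, 0.29 ± 0.20 and 0.13 ± 0.16, by 0.14, 0.15 and 0.13 without WT-A, and by 0.56, 0.42 and 0.12 without WT-B. The 9 accessory subunits of complex V had a median log2 fold change of 0.24, and WT-A was the lowest library for all 9. Without WT-A their median was -0.02 and 3 of 9 were higher, whereas the 8 core subunits had a median of 0.25 with all libraries and 0.14 without WT-A, with all 8 higher in both.

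Atp5md, a small membrane subunit that takes part in joining ATP synthase into dimers (chr19:47083464-47090647), was the 1 member of complex V with a lower mean in 5G2del. It was at 3.503, 3.82 and 3.31 log2 CPM in 5G2del and at 3.02, 4.07, 4.44 and 4.18 in WT. WT-A was below every other library, and the 3 other WT libraries were above all 5G2del libraries. The log2 fold change was -0.38 ± 0.33, and -0.69 ± 0.25 without WT-A (limma-trend adjusted p = 0.975). The plot of named genes sets each value beside its value without WT-A.

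**Figure D3:**
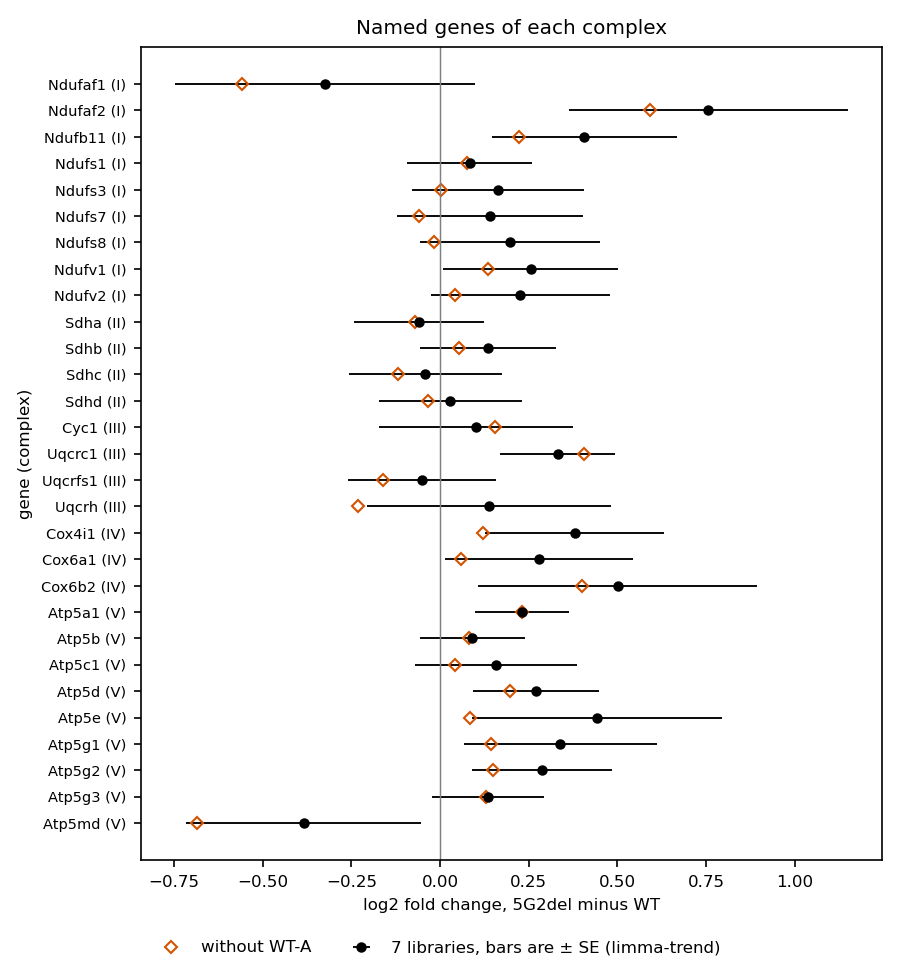
Filled circles give the log2 fold change of 5G2del over WT for 29 named genes with all 7 libraries, bars are ± 1 SE from limma-trend, and open diamonds give the value without WT-A (Cox4i2 and Cox6a2 are left out for low counts). In 10 of the 29 genes the diamond lies further from 0 than the circle, among them Uqcrc1 (0.41), Ndufaf1 (-0.56) and Atp5md (-0.69), and in the others it lies nearer.

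How far a member lay down in WT-A went with the length of its transcript. The median length of the members' reference transcripts was 865 bases, against 2661 for all genes. In the 47 members of up to 1000 bases, among those with a mean log2 CPM over 2, the median WT-A value was 0.91 log2 units below the gene's median library, and WT-A was lowest in 44. In the 39 longer members the median was -0.37, and WT-A was lowest in 23. Across the 86 members, Pearson's r between this deviation and log2 length was 0.479 in WT-A and between -0.166 and 0.0890 in the 6 other libraries. Genes of 1 library share its depth and preparation and are not independent replicates, so no p is given.

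Other protein-coding genes of the table had the same order by length in WT-A. Their median deviation was -1.002 for the 102 genes of up to 600 bases, -0.72 for the 187 up to 800, -0.56 for the 242 up to 1000, -0.26 for the 819 up to 1500 and -0.08 for the 1051 up to 2000, and it was 0.13 for those over 5000. The members of the same 5 classes were at -0.99, -0.84, -0.74, -0.55 and -0.25 (n = 18, 20, 9, 17 and 12), close to the other genes in the shortest class and below them in the next 4. The 5 members of 2000 to 3000 bases were at -0.07, near the other genes. The 5 members of 3000 to 5000 bases (Sdhc, Ndufab1, Ndufaf4, Ndufb2 and Atp5g1) were at -0.75, against 0.01 for other genes. By these lengths they were outside the order. Each length is that of a single reference transcript, and the coding sequences of the 5 have 315 to 519 bases. The class of these 5 may thus be too long, which was not tested. The 79 cytosolic ribosomal protein genes, which are also short, were lowest in WT-A in 77 cases. Their median log2 fold change was 0.23 with all libraries and -0.04 without WT-A. By contrast, the 13 mitochondrially encoded subunits, with a median length of 784 bases, were lowest in WT-A in 2 cases. What sets the low values of short transcripts in WT-A was not tested.

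**Figure D4:**
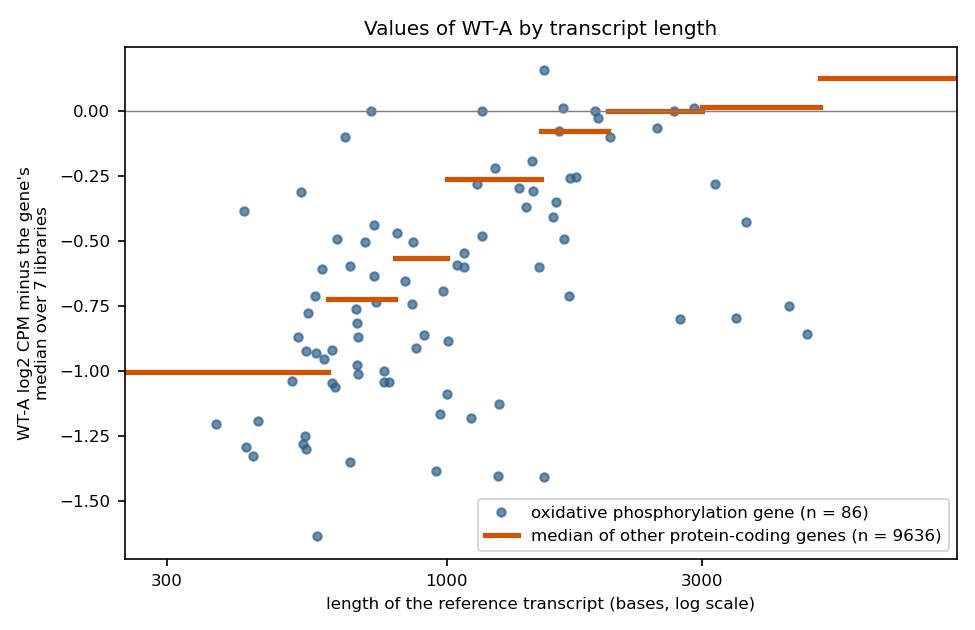
Each point is 1 of 86 member genes with a mean log2 CPM over 2, at the length of its reference transcript in bases (log scale) and at WT-A log2 CPM minus the gene's median over 7 libraries. Bars give the median of 9636 other protein-coding genes in each length class, from -1.002 at up to 600 bases to 0.13 over 5000, and the members lie close to the bar in the shortest class and below it in most of the others.

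With each library's trend on log2 length removed, a correction chosen after seeing the data, 56 of 91 members had a positive log2 fold change, against 49.8% of all genes. The median was 0.04, and the medians of complexes I to V were 0.04, -0.06, -0.05, 0.01 and 0.05. Uqcrc1 and Atp5a1, whose differences did not shrink without WT-A, have reference transcripts of 1653 and 2471 bases. They were not the only such members, since 64 of 91 shrank. Cox5a, with 645 bases, went from 0.21 to 0.23 without WT-A.

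The 13 subunits encoded in mitochondrial DNA, the partners of these proteins in complexes I, III, IV and V, went the other way. Their mean was lower in 5G2del for 11 of 13, with a median log2 fold change of -0.34, and 0 passed an adjusted p of 0.05. At an unadjusted p under 0.05, 5 were lower (2.24% of all genes were), and the groups did not overlap for 6 (2.78% of all genes, lower). The 13 genes share each library's mitochondrial part of the counts, so these are not 13 independent observations. The smallest p was that of mt-Nd4l, a membrane subunit of complex I, which was at 5.73, 5.46 and 5.10 log2 CPM in 5G2del and at 5.99, 5.96, 6.04 and 6.11 in WT. Every 5G2del library was below every WT library, with a log2 fold change of -0.59 ± 0.18 (limma-trend adjusted p = 0.989). Without WT-A the median of the 13 was -0.38 and all 13 were lower. Mitochondrial transcripts took 25.1% to 29.9% of counts in 5G2del and 27.7% to 35.9% in WT, and a scaling to nuclear genes alone moved the median of all genes to -0.06. On that scale, which moves all genes alike, the 91 nuclear genes had a median of 0.11.

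Summed over all 91 genes, the nuclear members took 4107, 4918 and 5060 CPM in 5G2del and 3166, 4925, 4222 and 4471 CPM in WT. The 2 groups overlapped, and WT-A had the smallest sum. As a percentage of the CPM of the 13 mitochondrially encoded subunits, this was 18.9%, 24.5% and 20.5% in 5G2del and 13.2%, 21.7%, 14.5% and 16.6% in WT, or 21.3% ± 2.89 (SD, n = 3) and 16.5% ± 3.72 (SD, n = 4). WT-B lay among the 5G2del libraries and the 3 other WT libraries below them.

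**Figure D5:**
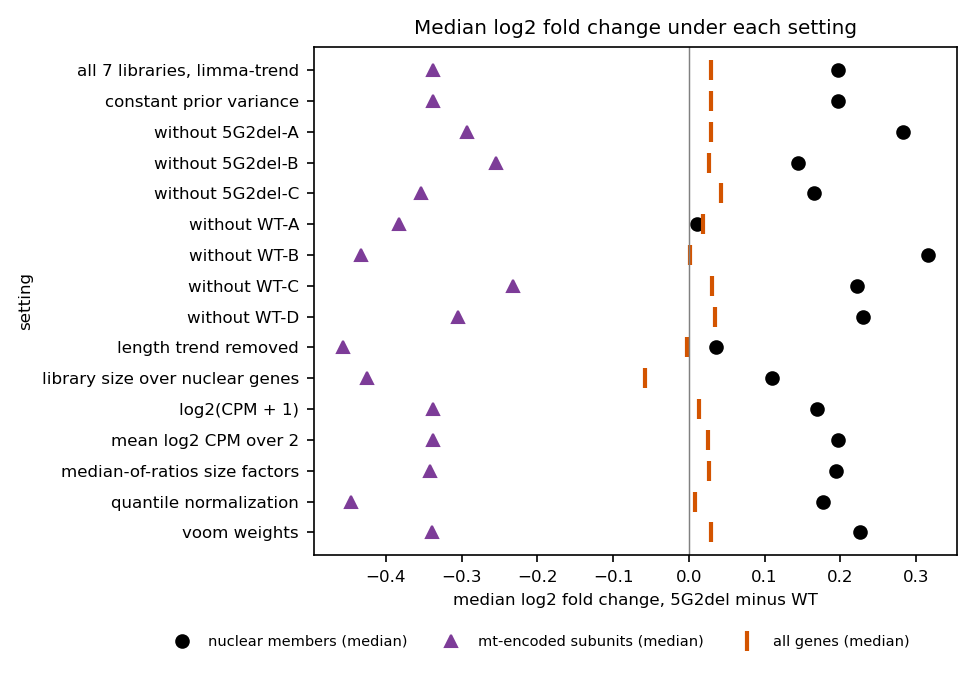
Each line is a processing setting and gives the median log2 fold change of the 91 nuclear genes (circles), the 13 mt-encoded subunits (triangles) and all genes (vertical marks). The nuclear median is 0.20 with all libraries, 0.01 without WT-A and 0.04 with the length trend removed, while the mt-encoded median is below 0 in every setting shown.

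Genes that serve the same pathway but were not taken by the rule gave no calls at an adjusted p of 0.05. Of 42 measured genes for cytochrome c and for assembly factors, 26 had a higher mean in 5G2del, with a median of 0.09 and 0 with an unadjusted p under 0.05. Without WT-A the direction turned, with 18 of 42 higher and a median of -0.06. Nubpl, which inserts iron-sulfur clusters into complex I, had the smallest p on the lower side (-0.71 ± 0.41), and Cox14, an assembly factor of complex IV, on the higher side (0.37 ± 0.25, or 0.14 without WT-A). Of 14 transcriptional regulators of respiration, 9 had a higher mean, with a median of 0.08, or 0.11 without WT-A. Gabpa, the DNA-binding subunit of GABP, differed by -0.25 ± 0.17, and Polrmt, the mitochondrial RNA polymerase, by 0.35 ± 0.28. Of 13 tricarboxylic acid cycle enzymes, 10 had a higher mean, with a median of 0.10, or 0.18 without WT-A. Of the 13, 1 had an unadjusted p under 0.05 (3.91% of all genes) and 2 had groups that did not overlap (5.7%). Fh1, fumarate hydratase, the enzyme that follows complex II in the cycle, was at 5.39, 5.19 and 5.26 log2 CPM in 5G2del and at 5.12, 4.78, 4.57 and 4.91 in WT. The groups did not overlap, and the log2 fold change was 0.43 ± 0.19 (limma-trend adjusted p = 0.989). Sucla2, a subunit of succinyl-CoA ligase, also had groups that did not overlap, with lower values in 5G2del (-0.34 ± 0.20).

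Expected counts summed to between 37930174 and 52194274 per library. Cux1, a homeobox gene of the 5G2 band, was at 7.06, 6.80 and 8.01 log2 CPM in 5G2del and at 8.59, 8.44, 8.17 and 8.43 in WT, with every 5G2del library below every WT library. The members on chromosome 5, Cox6a1, Atp5j2 and Atp5k, lie 20.9, 8.62 and 27.8 Mb from Cux1. Kit and Cd34, markers of stem and progenitor cells, were at 7.98 to 8.23 and 7.88 to 8.48 log2 CPM over the 7 libraries. The 8 stem and progenitor markers summed to 1251 to 1378 CPM in 5G2del and 1222 to 1392 CPM in WT. Of the 8, 6 had a higher mean in 5G2del, and Ly6a and Flt3 had a lower one (log2 fold changes -0.42 and -0.20). Slamf1, which encodes CD150, was at 0.40 to 0.65 log2 CPM in 5G2del and at -2.22 to -0.26 in WT, without overlap, and Cd48 was at 4.01 to 4.94 and at 2.52 to 4.58. Of 14 neutrophil and monocyte markers, 12 were measured, all with a higher mean in 5G2del (median log2 fold change 2.15, or 3.52 without WT-A). Their summed levels were 306 to 4972 CPM in 5G2del and 295 to 1680 CPM in WT. The 2 highest sums were in 5G2del-A and in WT-A, and Lcn2, Ltf and Ctsg were at 0 counts in WT-B and Chil3 in WT-D. Of 8 B lineage markers 4 were measured, at 25.9 to 203 CPM in 5G2del and at 10.5 to 28.1 CPM in WT. Of 12 erythroid markers 10 were measured, all with a lower mean in 5G2del (median log2 fold change -0.99), at 39.0 to 102 CPM in 5G2del and 78.2 to 280 CPM in WT, and their median deviation was highest in WT-A (2.66) and WT-B (2.12). Slc4a1 was at 0 counts in 2 5G2del libraries, and Hba-a2 in 5G2del-C. Of 8 megakaryocyte and platelet markers 6 were measured, at 25.5 to 41.6 CPM in 5G2del and 19.9 to 34.4 CPM in WT. Of these 6, 5 had a higher mean in 5G2del and Ppbp had a lower one (-0.66), with a median log2 fold change of 0.29. Pf4 and Gp5 differed by 0.06 and 0.03. Treml1, with the largest difference of the 6, was at -0.22 to 1.04 log2 CPM in 5G2del and under 3 counts in every WT library. Of 8 T and NK markers 3 were measured, at 6.71 to 8.35 CPM in 5G2del and 9.39 to 12.6 CPM in WT. In bulk samples fewer cells of a type and less RNA per cell cannot be told apart, and the part of these cell types in the members' values was not tested.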

How the data were processed

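RNA sequencing values of 4 WT and 3 5G2del libraries were used. The authors deposited log2 CPM per library and gene, with their own log2 fold change, score, p-value and q-value, in a single table. The submitters' processing notes name STAR 2.7.9a, RSEM 1.3.0, limma 3.50.3 and the builds mm10 and GRCh38, without saying what each was used for. The annotation and any filter before deposit were not given in the sources used. The deposited log2 CPM stepped back to expected counts on an offset of 0.5 count, 71.3% of them whole within 0.01, so no count model was used. The library sizes behind these values were recovered from the lowest value of each library, taken as 0 counts. They were below the summed expected counts in 5G2del-C (41220903 against 47664360) and WT-C (34865420 against 42038974). In the other libraries they were above the sums, so CPM here is not a plain scaling to the listed counts. How the sizes were set was not given. A floor of 3 counts was 0.0538 to 0.0860 CPM and covers counting error only. Because RSEM shares out reads that map to several genes and the strand setting is unknown, values of members with processed copies, paralogues or antisense partners are uncertain. Voom applied to the expected counts matched the log2 fold changes deposited by the authors within 1.4e-08, and the deposited table had 0 genes at a q-value under 0.05.

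Column names gave each library's group and no sample number. Groups were compared by limma-trend (limma 3.58.1, R 4.3.3) on the deposited log2 CPM of all 7 libraries and 16760 genes, two-sided, with Benjamini-Hochberg adjustment over all genes and a threshold of 0.05. The script was tested on simulated data. Fold changes are 5G2del over WT. Lists are described by counts and medians. Lengths, positions and gene types came from GENCODE M21 and upstream sequences from RefSeq. Named were the core catalytic subunits, the tissue isoforms, and in each complex the gene with the smallest p in each direction and that with the highest level per length, together with any member without overlap of groups or past the threshold. Of pathway lists, the gene with the smallest p in each direction was named. Ndufa2, Uqcrc2, Cox5a, Cox6b1 and Cox7a2l were named after their values were seen. The single values of 1 member are not reported here. The members and lists were chosen with earlier results of these data known. Alternatives were other scalings, a filter on low genes, log2(CPM + 1), voom weights, no trend, each library left out, and, added later, removal of the length trend.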

Additional observations from a re-analysis of the deposited data

Results flagged for a closer look

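Cox4i1 was the 1 named member with a single WT library far from the rest. WT-A was at 6.17 log2 CPM, while WT-B, WT-C and WT-D were at 7.25, 7.12 and 7.26. The gap between WT-A and its nearest neighbour, as a share of the WT range, was above the 95% critical value of Dixon's test for 4 samples. Over all 91 members 10 were past that value, each of them in WT-A. The share over all genes is not given, so the 10 cannot be read as particular to the members. Chance alone gives about 1 in 20 groups, and members of the same library are not independent.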

How the results depend on the processing

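The number of members higher in 5G2del, 81 of 91 with all libraries, ran from 47 (without WT-A) to 87 (without WT-B) with 1 library left out, and their median log2 fold change from 0.01 to 0.32. Under the other planned settings the median was 0.11 to 0.23, and 0 members passed an adjusted p of 0.05 in any setting. No paired analysis was possible because the columns of the table carry no replicate number. The floor of 3 counts limits Cox4i2, Cox6a2 and Cox6c2.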
